A study of Mus musculus with 2 samples.

Results

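The 4 neuregulins (Nrg1, Nrg2, Nrg3 and Nrg4) and the 4 receptors of the ErbB family (Egfr, Erbb2, Erbb3 and Erbb4) were taken by gene symbol from the transcript tables and joined to the gene tables by gene identifier. All 8 were found, of 55536 annotated genes in all. The tissue was labelled as layer of hippocampus, with the layer not named, of female B6CASTF1/J mice aged 2 months. This strain is a cross of the C57BL/6J laboratory strain with the wild-derived CAST/EiJ strain. Total RNA (300 ng for each library) was sequenced in 2 libraries, replicates 1 and 2, which form 1 group, so no conditions were contrasted and no p-values were computed. Each library has its own tissue record and both share 1 donor record, which leaves unstated whether they came from separate animals, and part of the spread between replicates may be technical. Reads from CAST/EiJ alleles were quantified on the mm10 reference, and the effect of that on the counts was not tested.

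Neuregulins are growth factors, most of them made as membrane-bound precursors, whose EGF-like domain is released or displayed to neighbouring cells. They bind ErbB3 and ErbB4. ErbB2 binds no known ligand and acts as a partner, ErbB3 has a weak kinase and signals mainly through partners, and Egfr (ErbB1) binds EGF, TGF-alpha and related ligands. In the hippocampus, ErbB4 is known from inhibitory interneurons, and neuregulin signalling through it has been tied to the wiring and plasticity of inhibitory circuits. Nrg1 is also known from peripheral nerve, where its type III form acts on Schwann cells through ErbB2 and ErbB3.

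The libraries held 29490900 and 30691917 expected read counts on annotated genes in replicates 1 and 2, and a count of 0 allowed a level of up to 0.102 and 0.0977 CPM (counts scaled to a fixed total; 3 counts, counting error only). Levels are given as TPM, an abundance corrected for transcript length and scaled so that each library has the same total. A gene was called detected when neither library was below 1 TPM, and 6 of the 8 members were, beside 58.0% of 22015 nuclear protein-coding genes. Erbb2 and Nrg4 lay below the minimum. All 8 members had whole-number gene counts (tolerance 0.005), as did 83.0% of all genes with any count, where a fractional count would mark reads shared with another gene. Nuclear protein-coding genes took 40.8% and 40.6% of all TPM, and a second deposited quantification gave them higher TPM, by a median of 1.71 times in each library over the detected protein-coding genes. Among the members that ratio averaged between 1.45 times for Erbb4 and 3.38 times for Nrg4, so absolute TPM depends on the quantification.

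**Figure D1:**
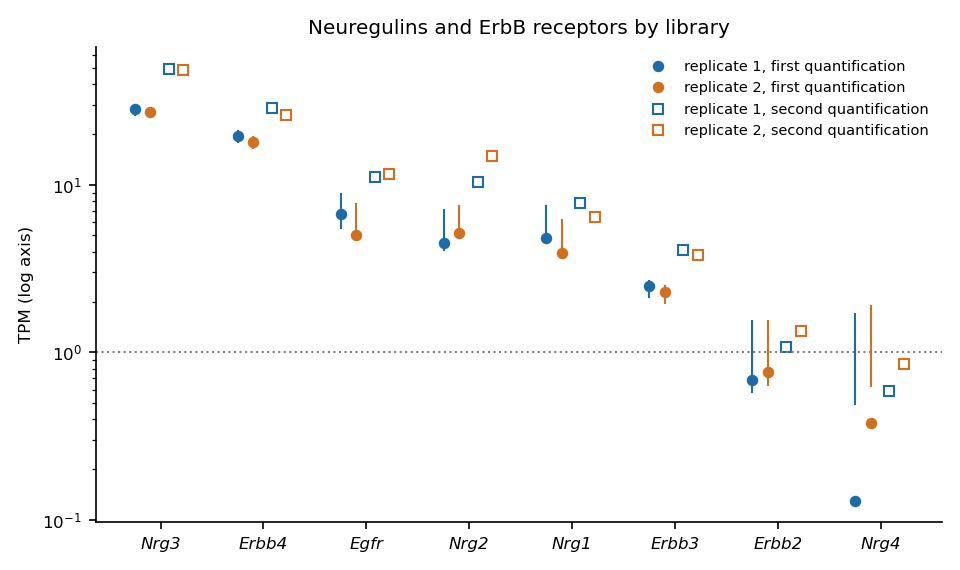
TPM of the 8 members on a log axis, ordered by mean TPM. Filled circles are the first quantification with its deposited interval bounds as lines, open squares are the second quantification, and colours mark replicates 1 and 2; the dotted line marks 1 TPM. Nrg3 and Erbb4 stand above the others in both quantifications, and the circles of Nrg4 and of Nrg1 in replicate 1 lie below their own bounds.

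Nrg3 was the highest of the ligands and of all 8 members. It encodes a neuregulin that is largely restricted to the nervous system and binds ErbB4. Its gene, ENSMUSG00000041014.17 (chr14:38368952-39473088, - strand, mm10), spans 1104 kb, of which annotated exons cover 0.617%. Nrg3 had 1959 counts in replicate 1 and 2063 in replicate 2. These gave 28.5 and 27.35 TPM, a mean of 27.9 ± 0.820 TPM (SD, n = 2), with deposited bounds of 26.2 to 29.1 and 25.3 to 28.0 TPM. The libraries overlapped in those bounds, and the percentile of Nrg3 among nuclear protein-coding genes was 83.6 and 83.0. The second quantification placed it at 49.5 and 48.6 TPM.

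The coding sequences of the Nrg3 transcripts differ in a pair of short segments, shown here because they set the protein forms apart. The alternative exon of 72 bases (chr14:38371277-38371348, - strand, mm10) occurs in Nrg3-201, whose coding sequence has 713 codons. The extension of 24 bases (chr14:38376484-38376507, - strand, mm10) occurs in Nrg3-202, with 697 codons, while Nrg3-203, with 689 codons, has neither. All sequences printed are from the GENCODE M21 transcripts, 5′ to 3′, with the segment named in capitals and 15 bases of the adjoining spliced sequence on each side in lower case.
Nrg3 alternative exon: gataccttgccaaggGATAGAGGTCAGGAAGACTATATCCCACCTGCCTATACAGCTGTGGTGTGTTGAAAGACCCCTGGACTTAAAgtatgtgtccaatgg
Nrg3 exon extension: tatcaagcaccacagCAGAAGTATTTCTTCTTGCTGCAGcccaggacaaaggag
Both lengths are multiples of 3, so neither shifts the reading frame. The transcripts differ outside the coding sequence too, with 4011 bases in Nrg3-201, 2175 in Nrg3-202 and 2137 in Nrg3-203, so the split of reads between them does not rest on these segments alone.

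Nrg3-201, the form with the alternative exon, led in both libraries at 12.35 and 14.0 TPM. The forms without it, Nrg3-202 and Nrg3-203, summed to 10.1 and 7.10 TPM. The alternative exon was thus in 60.7% ± 8.02 of the TPM of protein-coding Nrg3 transcripts (SD, n = 2), in 53.5% ± 2.39 in the second quantification and in 74.5% ± 6.31 by counts. Within the shorter forms the libraries differed more, with Nrg3-203 at 7.71 and 4.01 TPM and Nrg3-202 at 2.39 and 3.09 TPM, and the bounds of the libraries overlapped for each (4.59 to 9.41 and 1.31 to 5.91 TPM for Nrg3-203). A transcript annotated as a retained intron, Nrg3-204, whose second exon has 2912 bases, took 461.5 and 495 counts and 22.1% ± 1.13 of the TPM of Nrg3. It codes for no annotated protein, so the protein-coding transcripts of Nrg3 held 77.9% ± 1.13 of its TPM.

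Nrg1, the founding member and ligand of ErbB3 and ErbB4, had 307 counts in replicate 1 and 239 in replicate 2. Its gene, ENSMUSG00000062991.7 (chr8:31814551-32884029, - strand, mm10), spans 1069 kb and has 18 annotated transcripts, of which 7 were at 0 counts in both libraries. Its level was 4.84 and 3.94 TPM, a mean of 4.39 ± 0.636 (SD, n = 2). In replicate 1 the TPM lay below its own deposited bounds of 4.99 to 7.44. In the second quantification the values were 7.85 and 6.44 TPM. Nrg1 was lower in replicate 2 in each of these measures.

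Nrg1 proteins are classed by their first exon. Type I and type II forms carry an immunoglobulin-like domain, and type III forms carry a cysteine-rich, membrane-spanning segment in its place. In mm10 the type II first exon lies 874.5 kb upstream of that of type I, which lies 91.5 kb upstream of that of type III. Transcripts that start at the type III exon held 2.01 and 1.73 TPM, those of type I 1.83 and 1.06 TPM, and those of type II 0.99 and 1.15 TPM. These are 42.8% ± 1.62 for type III, 32.4% ± 7.77 for type I and 24.8% ± 6.15 for type II (SD, n = 2), so the share of type II overlapped that of type I between the libraries.

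Much of the type III signal came from transcripts with no annotated protein. Nrg1-204, a retained-intron transcript that starts at the type III exon, stood at 1.30 and 0.46 TPM, from 39.7 and 14.7 counts. When protein-coding transcripts alone were summed, type III took 24.0% ± 11.2, type I 41.6% ± 16.6 and type II 34.4% ± 5.41, and the order of the types changed. Coding type III held 0.52 and 0.96 TPM in replicates 1 and 2. In replicate 2, 0.41 TPM of this was Nrg1-216, a 407-base transcript with both annotated ends incomplete. It rested on 2.84 counts, and had 0 counts in replicate 1 and in the second quantification. By counts, which favour long transcripts, type I led with 51.6% ± 9.10 against 23.5% ± 0.0342 for type III. No order of the types therefore held across the measures. Different transcripts led the libraries, Nrg1-204 in replicate 1 and Nrg1-218, of type II, in replicate 2 at 1.15 TPM. By counts Nrg1-203, of type I, led with 148 and 97.2, and its deposited bounds of 0.987 to 1.46 TPM in replicate 1 and 0.599 to 0.962 TPM in replicate 2 did not overlap.

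The EGF-like domain, the part of the protein that binds the receptor, ends in 1 of a pair of alternative exons named alpha and beta. Beta forms are the ones known from neurons. The exons are shown because they define the forms, together with the small exon that follows beta in beta-1 forms. They lie at chr8:31838261-31838328 (alpha, 68 bases), chr8:31837670-31837728 (beta, 59 bases) and chr8:31831205-31831228 (beta-1, 24 bases), all on the - strand of mm10.
Nrg1 alpha exon: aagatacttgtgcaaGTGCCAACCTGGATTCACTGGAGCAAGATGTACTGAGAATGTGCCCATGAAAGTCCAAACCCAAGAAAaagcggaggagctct
Nrg1 beta exon: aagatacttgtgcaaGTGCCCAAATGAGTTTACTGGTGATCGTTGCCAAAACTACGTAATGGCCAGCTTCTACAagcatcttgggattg
Nrg1 beta-1 exon: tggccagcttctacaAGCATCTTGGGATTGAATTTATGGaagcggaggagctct
Transcripts with the beta exon held 2.88 and 2.92 TPM, and those with the alpha exon 0.36 and 0.09 TPM. Beta transcripts thus took 92.9% ± 5.74 of the pair (SD, n = 2), 94.5% ± 3.98 by counts and 89.7% ± 6.90 in the second quantification. The alpha values rest on 21.1 and 5.41 counts, all on Nrg1-213, which has 462 codons against 645 in Nrg1-203, so reads outside the alpha and beta exons also entered the split.

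Nrg2, a neuregulin that binds ErbB3 and ErbB4 and is known from interneurons and granule cells, had 233 and 303 counts in replicates 1 and 2. Its gene is ENSMUSG00000060275.13 (chr18:36017652-36197380, - strand, mm10). The level was 4.47 and 5.16 TPM, a mean of 4.82 ± 0.488 (SD, n = 2), and 10.5 and 14.9 TPM in the second quantification. Replicate 2 was higher in each measure, and the deposited bounds overlapped, at 4.11 to 7.11 and 4.84 to 7.48 TPM. Nrg2-203, with 857 codons, held 83.0% ± 4.80 of the TPM and 98.2% ± 0.272 of the counts, but 46.3% ± 6.16 of the TPM in the second quantification, which gave the 899-base Nrg2-201 3.25 and 5.80 TPM where the first gave it 0 and 0.09.

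Nrg4, a small neuregulin that binds ErbB4 and is known as a signal secreted by brown fat, was the lowest member. Its gene, ENSMUSG00000032311.17 (chr9:55220222-55326844, - strand, mm10), had 5 and 9 counts, or 0.170 CPM (exact 95% Poisson interval 0.0551 to 0.396) in replicate 1 and 0.293 CPM (0.134 to 0.556) in replicate 2. The intervals overlap. Its TPM of 0.13 and 0.38 lay below the deposited bounds in both libraries. Of 13 annotated transcripts, 9 were at 0 counts in both libraries, among them both protein-coding ones (Nrg4-204 and Nrg4-213). The reads fell on transcripts annotated as processed, retained-intron or nonsense-mediated decay. Nrg4 overlaps Fbxo22 on the opposite strand, which had 532 and 534 counts, and the sources used here do not say whether the counting used strand, so reads of this pair cannot be told apart with certainty.

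Erbb4, the neuregulin receptor with an active kinase of its own, was the highest receptor. Its gene, ENSMUSG00000062209.15 (chr1:68032186-69108059, - strand, mm10), spans 1076 kb. It had 2880 and 2804 counts, more than any other member, and 19.7 and 18.0 TPM in replicates 1 and 2, a mean of 18.9 ± 1.16 (SD, n = 2). The deposited bounds of 18.1 to 21.1 and 16.7 to 19.3 TPM overlapped. Its percentile among nuclear protein-coding genes was 76.8 and 75.1, and the second quantification gave it 28.7 and 26.1 TPM. Erbb4, Nrg1 and Nrg3 each span over 1000 kb, a length reached by 0.268% of nuclear protein-coding genes. The 8 genes annotated inside Erbb4 on its own strand had at most 13 and 16 counts each.

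ErbB4 exists in forms that differ next to the membrane and in the cytoplasmic tail. The juxtamembrane exon JM-a carries the site at which ADAM17 cleaves the receptor, a step that precedes release of the intracellular domain, while JM-b receptors are not cleaved there. The cytoplasmic exon of CYT-1 carries a docking site for phosphoinositide 3-kinase, which CYT-2 lacks. The exons that distinguish them are JM-a at chr1:68290243-68290317 (75 bases), JM-b at chr1:68290439-68290483 (45 bases) and CYT-1 at chr1:68043908-68043955 (48 bases), on the - strand of mm10.
Erbb4 JM-a exon: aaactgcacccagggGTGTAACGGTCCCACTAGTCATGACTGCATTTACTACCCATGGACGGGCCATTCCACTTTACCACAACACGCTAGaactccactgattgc
Erbb4 JM-b exon: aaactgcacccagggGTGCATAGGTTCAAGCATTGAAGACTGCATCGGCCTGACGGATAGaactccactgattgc
Erbb4 CYT-1 exon: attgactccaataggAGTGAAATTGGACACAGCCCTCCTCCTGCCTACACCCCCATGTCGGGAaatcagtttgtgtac
JM-a and JM-b are joined to the same flanking bases, and all 3 lengths are multiples of 3.

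Transcripts with the JM-a exon held 9.40 and 8.80 TPM and those with the JM-b exon 9.56 and 9.04 TPM in replicates 1 and 2. JM-b was 50.5% ± 0.177 of the pair by TPM and 46.1% ± 0.627 in the second quantification (SD, n = 2), but 15.2% ± 0.0867 by counts. The JM-b value rests on 1 transcript, Erbb4-205, whose annotated 3′ end is incomplete. It has 2196 bases and 732 codons, against 12037 bases and 1292 codons for the JM-a transcript Erbb4-202. Reads from the remainder of the gene could be given only to transcripts with the JM-a exon, and no annotated transcript above 0 counts joins JM-b to the cytoplasmic exons. The share of JM-b therefore reads both the alternative exons and the read density of the first part of the gene against its remainder, and the files do not separate these.

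The cytoplasmic choice was uneven in every measure. CYT-2, in Erbb4-202, held 9.05 and 8.41 TPM, and CYT-1, in Erbb4-201, 0.35 and 0.39 TPM. CYT-1 was 4.08% ± 0.501 of the pair by TPM, 3.98% ± 0.453 by counts and 5.47% ± 1.41 in the second quantification (SD, n = 2). Both transcripts share their last exon, of 8301 bases. Erbb4-201 has 11782 bases in all and Erbb4-202 has 12037, although only Erbb4-201 carries the CYT-1 exon. They thus differ outside that exon too, and the split of reads between them does not rest on it alone. Erbb4 transcripts without an annotated cytoplasmic end held 10.26 and 9.23 TPM in replicates 1 and 2 and are outside the pair.

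**Figure D2:**
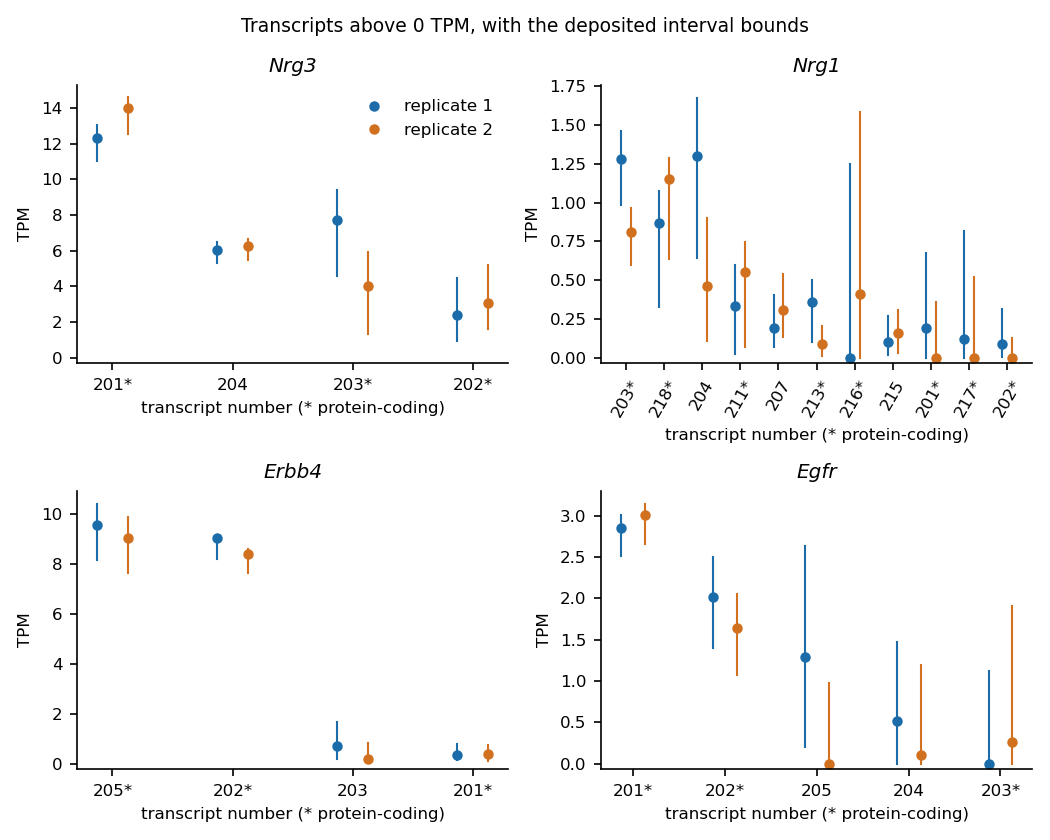
TPM of each transcript above 0 TPM of Nrg3, Nrg1, Erbb4 and Egfr, by library, with the deposited interval bounds as lines; asterisks mark protein-coding transcripts. Erbb4 is split about evenly between Erbb4-205 and Erbb4-202, the bounds of Nrg1-203, Nrg1-218 and Nrg1-204 overlap within each library, and Egfr-205 is at 1.29 TPM in replicate 1 and at 0 in replicate 2.

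Egfr, the receptor of EGF and TGF-alpha, known from neural progenitors and glia, had 767 and 798 counts in replicates 1 and 2. Its gene is ENSMUSG00000020122.16 (chr11:16752203-16918158, + strand, mm10). The counts, scaled by library size, were almost equal (log2 ratio of replicate 2 to replicate 1 of -0.01), while the TPM of 6.67 and 5.02 gave a log2 ratio of -0.41. In the same libraries the 446-base Egfr-205 had 9.72 and 0 counts, which were listed at 1.29 and 0 TPM. The second quantification gave Egfr 11.1 and 11.7 TPM, with the higher value in replicate 2.

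Egfr also has a short coding transcript. Egfr-201 encodes the full receptor in 28 exons and 1210 codons, and Egfr-202, whose 16 exons each share at least 1 end with an exon of Egfr-201, stops at 655 codons, before the kinase exons, so that its annotated product is an ectodomain alone. Egfr-201 held 2.85 and 3.01 TPM, and Egfr-202 2.02 and 1.64 TPM. The short form was 38.4% ± 4.39 of the pair by TPM, 28.9% ± 5.89 in the second quantification and 14.9% ± 2.35 by counts (SD, n = 2). Its counts were 125 and 105, against 626 and 689 for Egfr-201, whose last exon alone has 6665 bases. As for JM-b, the share of Egfr-202 also reads the read density of the first part of the gene against its remainder. These were not separated.

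Erbb3, the partner-dependent receptor that recruits phosphoinositide 3-kinase and is known from the oligodendrocyte and Schwann cell lineages, had 319 and 306 counts. Its gene, ENSMUSG00000018166.8 (chr10:128567523-128589652, - strand, mm10), has 1 annotated transcript, so no split between transcripts enters its value. It stood at 2.48 and 2.29 TPM, a mean of 2.39 ± 0.134 (SD, n = 2), and at 4.11 and 3.83 TPM in the second quantification. The bounds overlapped, at 2.15 to 2.68 and 1.98 to 2.48 TPM.

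Erbb2, the receptor that binds no known ligand and dimerizes with the others, had 73 and 79 counts and was the lowest receptor. Its gene is ENSMUSG00000062312.5 (chr11:98412470-98437716, + strand, mm10). It stood at 0.68 and 0.76 TPM, a mean of 0.72 ± 0.0566 (SD, n = 2), below the detection minimum, and at 1.07 and 1.34 TPM in the second quantification, above it. All reads of replicate 1 were given to the protein-coding Erbb2-201 (0.68 TPM), while in replicate 2 Erbb2-201 had 0.38 TPM and Erbb2-202, which keeps an intron of 81 bases, had 0.37 TPM. Erbb2 overlaps Mien1 on the opposite strand, which had 497 and 511 counts, with the same limit on strand as for Nrg4.

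**Figure D3:**
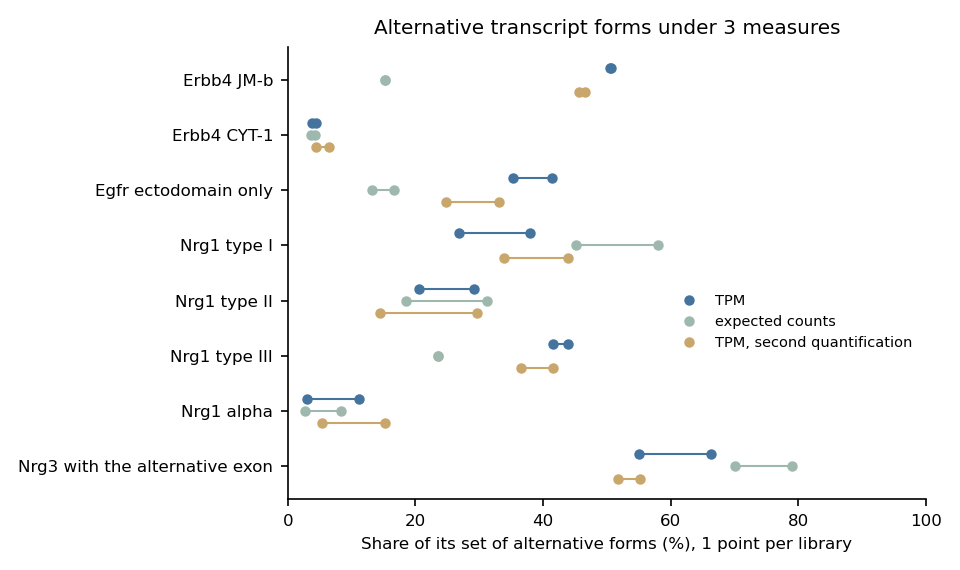
Share of each alternative form within its set, with 1 point for each library and a line joining the libraries, for TPM, expected counts and the TPM of the second quantification. Erbb4 CYT-1 and Nrg1 alpha lie low in all 3 measures, while Erbb4 JM-b, Egfr ectodomain only and Nrg1 type III are lower by counts than by TPM.

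Within each family 1 gene held most of the TPM. The neuregulins summed to 37.95 and 36.8 TPM and the receptors to 29.5 and 26.1 TPM in replicates 1 and 2. Nrg3 made up 74.7% ± 0.612 of the neuregulin sum, Nrg2 12.9% ± 1.58, Nrg1 11.7% ± 1.45 and Nrg4 0.687% ± 0.487 (SD, n = 2). Erbb4 made up 67.9% ± 1.70 of the receptor sum, Egfr 20.9% ± 2.39, Erbb3 8.59% ± 0.260 and Erbb2 2.61% ± 0.429. By counts, by protein-coding transcripts alone and in the second quantification, the mean share of Nrg3 was between 70.5% and 78.6% and that of Erbb4 between 62.3% and 70.8%.

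**Figure D4:**
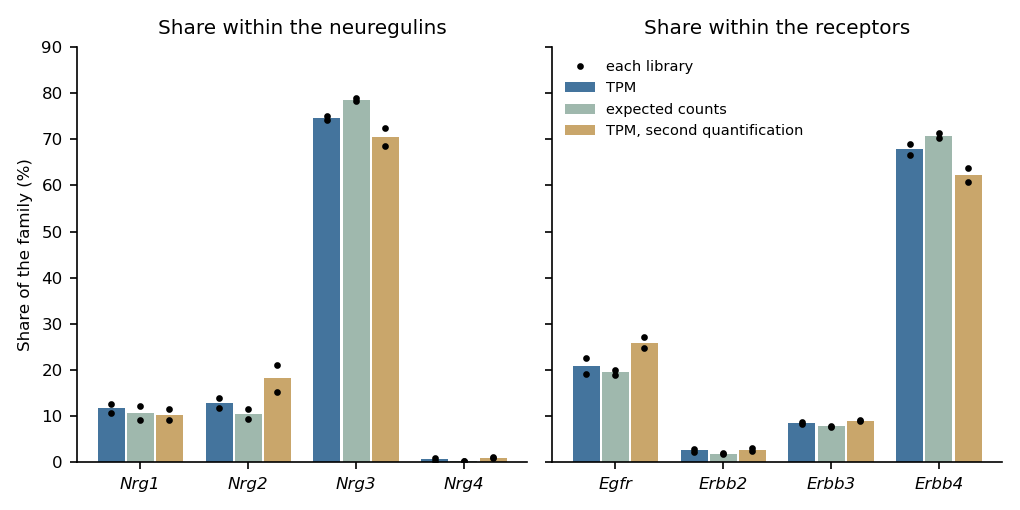
Share of each neuregulin and of each receptor in its family, in percent, by TPM, by expected counts and by the TPM of the second quantification; bars are means and points are the libraries. The mean share is 70.5% to 78.6% for Nrg3 and 62.3% to 70.8% for Erbb4 in the measures plotted, and points of single libraries lie outside these ranges.

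The order by mean TPM was Nrg3, Erbb4, Egfr, Nrg2, Nrg1, Erbb3, Erbb2 and Nrg4. Neighbours were called apart where their mean log2 ratio, taken within each library, was over 3 times the larger of its own SD and the pooled SD of the 7 neighbouring pairs (0.44). This held for 2 of 7 pairs, Erbb4 over Egfr (log2 ratio 1.70 ± 0.20) and Erbb3 over Erbb2 (1.73 ± 0.19; SD, n = 2). Nrg3 over Erbb4 had a log2 ratio of 0.57 ± 0.05, steady between the libraries but under the pooled limit. The widest SD in that pool was 0.98, for Erbb2 over Nrg4, the member with the fewest counts. Egfr was above Nrg2 in replicate 1 and below it in replicate 2, and Nrg1 was above Nrg2 in replicate 1 only, so neither pair had a fixed order. In the second quantification and in counts per kb of merged exons, Nrg2 stood above Egfr on average, and per kb Erbb3 stood above Nrg1. The pairs called apart changed as well. In the second quantification Nrg3 over Erbb4 was apart (0.84 ± 0.08), and Erbb4 over Nrg2, its next lower neighbour, was not (1.13 ± 0.46). Per kb, Erbb4 over Nrg2 was apart (1.44 ± 0.30) and Nrg3 over Erbb4 was not (0.36 ± 0.08). Nrg3 and Erbb4 led, and Erbb2 and Nrg4 came last, in all 3 of these orders.

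Between the libraries the counts of the members were close. Of the 7 members at a mean of 1 CPM or more, 0 reached a log2 ratio of 1 or -1, beside 0.529% of 15509 genes. Nrg4, below that minimum, had a log2 ratio of 0.73 by counts and 1.55 by TPM, from 5 and 9 counts. Among the 7, Nrg1 alone had exact 95% Poisson intervals that did not overlap, at 10.4 CPM (9.29 to 11.7) in replicate 1 and 7.77 CPM (6.82 to 8.82) in replicate 2, a log2 ratio of -0.42. Intervals of this kind were separate for 9.17% of the 15509 genes (5.11% separate and lower in replicate 2), and 1 of 7 members is near that share. With the spike-in RNAs as the scale, and in the second quantification, Nrg2 was separate too, higher in replicate 2 (log2 ratio 0.32 in the counts as first scaled). The 5 choroid plexus markers summed to 128 TPM in replicate 1 and 71.4 TPM in replicate 2, and most of this was Ttr (121 and 65.7 TPM). Kl (4.51 and 4.09 TPM) and Kcnj13 (0.98 and 0.87) differed little. Folr1 (1.11 and 0.45) and Aqp1 (0.53 and 0.28) were low in both libraries. The part of these markers in the difference in Nrg1 was not tested.

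Of the members detected with more than 1 annotated transcript (Nrg1, Nrg2, Nrg3, Erbb4 and Egfr), 4 of 5 had the same leading transcript in both libraries, beside 88.8% of 11578 such genes. The leader also depended on the measure: for Erbb4 it was Erbb4-205 by TPM and Erbb4-202 by counts and in the second quantification, and over all 7 members with several transcripts the TPM leader also led in the second quantification for 4 and by counts for 5. Retained-intron transcripts reached 20% of TPM in both libraries for 2 of the 5, Nrg1 (32.9% and 23.6%) and Nrg3 (21.3% and 22.9%), beside 19.8% of such genes. With so few members these shares are a description only.

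Apart from the other ligands of EGF receptors, each pathway list had a median above those of the neuregulins (4.60 TPM) and receptors (4.12 TPM). The highest members did not lie below every list. Nrg3 (27.9 TPM) was above the medians of the proteases (24.8 TPM) and negative regulators (18.3 TPM), and Erbb4 (18.85 TPM) was near the latter. Of 78 genes in 6 pathway lists, 70 were detected at 1 TPM in both libraries, beside 58.0% of 22015 nuclear protein-coding genes. Between the libraries 1 list gene differed by 2-fold, beside 0.529% of 15509 genes at a mean of 1 CPM or more. A single gene is too few to set against that share. The median of all nuclear protein-coding genes was 3.27 and 3.24 TPM in replicates 1 and 2, and that of the detected ones was 14.6 TPM. No list gene was at 0 counts in both libraries.

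Other ligands of the EGF receptor family were low. The median over 7 genes was 0.455 ± 0.134 TPM (SD, n = 2), and 2 passed the detection minimum. Tgfa, a ligand of Egfr, led at 11.0 and 12.5 TPM, above Egfr itself in both libraries. Hbegf, which binds Egfr and ErbB4, stood at 2.96 and 4.20 TPM. Egf had 0.77 and 1.07 TPM, and Btc, a ligand of Egfr and ErbB4, 0.36 and 0.55 TPM. Areg, Epgn and Ereg had at most 5 counts in either library. All 3 neuregulin-like membrane proteins, which carry an EGF-like domain, were detected: Cspg5, also called neuroglycan C, at 113 ± 6.25 TPM, Tmeff1 at 48.7 ± 2.73 and Tmeff2 at 24.0 ± 0.389 (SD, n = 2 each).

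The 11 proteases that process neuregulins or ErbB receptors had a median of 24.8 ± 0.170 TPM (SD, n = 2), and 10 were detected. The highest were Psenen and Aph1a, subunits of gamma-secretase, at 32.6 ± 2.02 and 30.4 ± 1.15 TPM, and Bace1, the beta-secretase that cuts Nrg1 and Nrg3, at 31.4 ± 2.06 TPM. Singled out after their values were seen, Adam17, which cleaves JM-a receptors, stood at 5.33 and 6.62 TPM, and Bace2, a relative of Bace1, at 1.84 and 0.49 TPM from 133 and 33 counts. Bace2 was the list gene that differed by 2-fold, with a log2 ratio of -2.06. Both Bace2 and the sum of the choroid plexus markers, most of it Ttr, were lower in replicate 2, and a link between them was not tested.

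The 32 adaptors and kinases that act downstream of ErbB receptors had a median of 34.2 ± 1.17 TPM (SD, n = 2), and 30 were detected. Map2k1, a kinase of the MAP kinase cascade, was among the 3 highest, at 127 ± 1.64 TPM. All 10 genes of the PDZ and nuclear partners were detected, with a median of 44.0 ± 3.09 TPM. Dlg4, the postsynaptic scaffold PSD-95, which binds ErbB4, led at 349 ± 7.74 TPM. The corepressor Ncor1, a partner of the released ErbB4 intracellular domain, stood at 116 ± 4.05 TPM and Dlg2, the scaffold PSD-93, at 94.0 ± 4.14. All 15 negative regulators were detected, with a median of 18.3 ± 2.09 TPM, led by the ubiquitin ligases Nedd4 (117 ± 1.18), Rnf41 (27.8 ± 0.983), which targets ErbB3, and Cbl (26.0 ± 0, at the same 2-decimal TPM in both libraries), which targets Egfr.

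**Figure D5:**
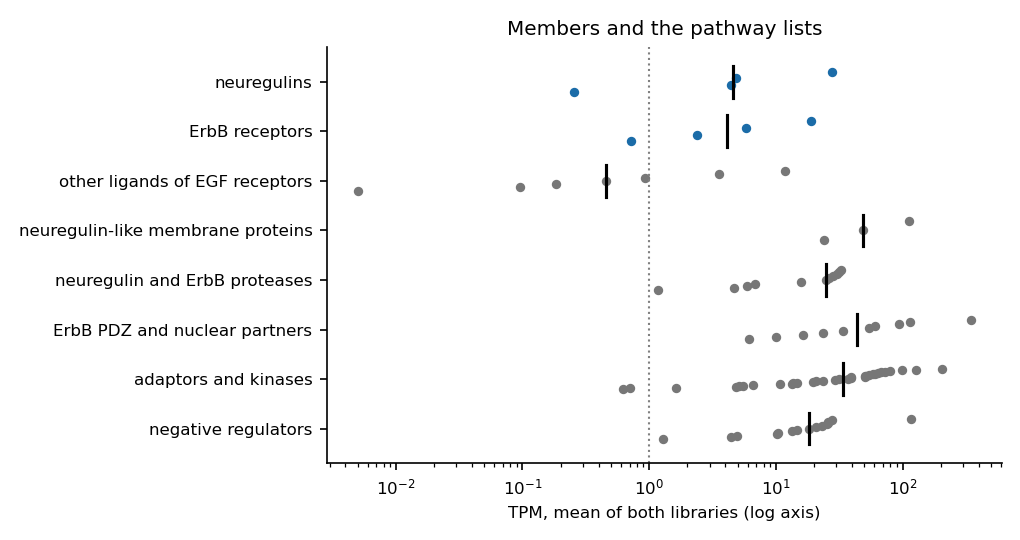
Mean TPM of both libraries for each gene on a log axis, by group, with the median of each group as a black bar; the 8 members are in blue and the pathway lists in grey, and the dotted line marks 1 TPM. The medians of the neuregulins (4.60 TPM) and receptors (4.12 TPM) lie below those of 5 of the 6 pathway lists and above that of the other ligands of EGF receptors.

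Markers of the cell types in which the family is known to act were present in the same RNA. In bulk tissue fewer cells of a type and less RNA per cell cannot be told apart, and the levels of the members cannot be assigned to a cell type. For each cell type list here and below, the share to set beside it is the 58.0% of 22015 nuclear protein-coding genes that were detected. All 11 markers of GABAergic interneurons passed the minimum, at a median of 21.7 ± 1.03 TPM (SD, n = 2). The peptide Sst (164 ± 14.1) and the enzyme Gad1 (149 ± 1.90) led them. All 11 markers together summed to 527 and 512 TPM in replicates 1 and 2. All 6 of glutamatergic neurons were detected (61.4 ± 0.173), led by Nrgn and Slc17a7 at 585 ± 18.7 and 533 ± 12.4 TPM. Glial lists were complete, with 8 of 8 for oligodendrocytes (37.0 ± 0.223, led by Mbp), 7 of 7 for their precursors (14.2 ± 0.276, led by Tnr and Olig1), 7 of 7 for astrocytes (103 ± 3.14, led by Slc1a2 and Slc1a3) and 6 of 6 for microglia (17.6 ± 0.891, led by Csf1r and C1qb).

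Of the other cells that could be in the dissection, all 6 endothelial markers (13.7 ± 0.0141 TPM, led by Ly6c1 and Cldn5) and all 5 of the leptomeninges (6.08 ± 1.53, led by Igf2 and Dcn) were detected. For choroid plexus 2 of 5 were detected, Ttr at 121 and 65.7 TPM and Kl at 4.51 and 4.09 TPM. Markers of Schwann cells, on which Nrg1 type III acts in peripheral nerve, were near 0, with 0 of 5 detected and summed levels of 0.22 and 0.25 TPM. The cell source of the Erbb3 and Nrg1 type III transcripts was not tested. The highest of them, Prx and Dhh, stood at 0.135 ± 0.0212 and 0.04 ± 0 TPM (SD, n = 2).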

How the data were processed

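For each library the authors deposited gene and transcript tables that, per the file headers, hold expected counts and TPM in the column layout of RSEM, with lower and upper interval bounds of TPM (a score here). A further deposited transcript table holds estimated counts and TPM in the layout of kallisto, per the file headers; its values were summed per gene and are called the second quantification. The build is mm10 per the labels, and the annotation is GENCODE M21 per the deposited notes; tool versions are not given in the sources used here. Entries that name no annotated gene, mainly the ERCC spike-in RNAs, held 0.378% and 0.368% of counts and stayed out of library sizes.

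The members and lists were chosen with earlier results of these data known. Named are all 8 members, the 3 highest of each pathway list (lists of up to 7 genes in full), list genes at 0 counts in both libraries and the 2 highest markers of each cell type; some genes that this rule takes are not reported here. Transcript forms were classed by shared exons in the M21 annotation. For the ratio of replicate 2 over replicate 1, 0.5 was added to each count and libraries were scaled by TMM factors (edgeR 4.0.16, limma 3.58.1, R 4.3.3), for genes at a mean of 1 CPM or more, with exact 95% Poisson intervals that cover counting error only; DESeq2 1.42.0 size factors were an alternative. The spread between the libraries, edgeR's common biological coefficient of variation, was 4.86% over 17782 genes. The ratio script was tested on simulated data. Other alternatives were TPM minimums, a pseudocount of 2, no filter, spike-in scale, counts in place of TPM, protein-coding transcripts and each replicate left out; those for transcript forms, for counts per kb and for counting intervals were chosen after seeing the data. Tables and figures were made in Python 3.11.15 with pandas 2.3.3, numpy 2.4.6, matplotlib 3.10.9 and scipy 1.17.1.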

Additional observations from a re-analysis of the deposited data

How the results depend on the processing

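No paired analysis was possible because both libraries belong to 1 group. The count of members past 2-fold was 0 under DESeq2 size factors, the spike-in scale, a pseudocount of 2, no filter and the second quantification. Members detected numbered 7 at 0.5 TPM and in the second quantification, and 3 at 5 TPM. The share of all protein-coding genes was not computed at these settings, so the counts describe the settings only. TPM ran higher in the second quantification, so 1 TPM is an easier minimum there. The summed level of the 8 members, 65.2 TPM, was 114 TPM in the second quantification and 161 TPM relative to nuclear protein-coding genes. Neighbouring pairs called apart numbered 4 by each pair's own SD, and 3 in the second quantification and per kb of merged exons, and they were not the same pairs in each. The share of Erbb4 was 62.3% in the second quantification, 70.8% by counts and 70.2% over protein-coding transcripts, and that of Nrg3 was 70.5%, 78.6% and 73.4%. Members with separate counting intervals numbered 2 on the spike-in scale and 2 in the second quantification. The median share of the leading transcript over the 7 members with several transcripts, 47.3%, was 53.8% when the counts of those same TPM leaders were used (not of the transcripts that lead by counts). JM-b was 46.1% in the second quantification and 15.2% by counts, CYT-1 was 5.47% in the second, Nrg1 type III was 39.0% in the second, 23.5% by counts and 24.0% over protein-coding transcripts, and the Egfr ectodomain transcript was 28.9% in the second and 14.9% by counts. Shares by counts weigh a transcript by its length, and those of short transcripts are lower by construction; the cause of the other shifts was not tested.

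With each replicate left out, the members detected stayed at 6 and 6, the summed level ran from 62.9 to 67.45 TPM, the Erbb4 share from 66.7% to 69.1%, the Nrg3 share from 74.3% to 75.1%, the leading-transcript median from 43.3% to 51.2%, JM-b from 50.4% to 50.7%, CYT-1 from 3.72% to 4.43%, type III from 41.6% to 43.9% and the Egfr ectodomain share from 35.3% to 41.5%. Each of these values is that of the single library kept, so they repeat the difference between the libraries and are no separate check. With 1 library no spread or ratio can be had, so the order of neighbours and the ratios were not recomputed that way. Of 78 pathway genes, 73 were detected at 0.5 TPM, 62 at 5 TPM and 73 in the second quantification, again with no share of all genes at these settings. Depth limits Nrg4, with 5 and 9 counts, and the transcript splits of Nrg1 and Erbb2.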
